A study of Rattus norvegicus with 3 samples.

Results

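Krt19, Prom1, Epcam and Aldh1a1 are genes of epithelial architecture and of progenitor-type cells, and all had more transcript in the kidney inner medulla of lithium-treated rats than of control rats, as the array ratios were read here. They were taken by symbol, as the probes annotated with one of these symbols alone, which gave 4 genes of 4390 named ones, with 1 probe each. The genes had been picked because their ratios on these arrays were high, so their values are a description, and no test is given for them. Each of 3 spotted arrays set lithium RNA in the red channel, channel 1, against control RNA in the green channel, channel 2. The lithium group had been treated for 1 month, and the labels name no strain, sex, age or lithium dose. RNA of 2 rats was pooled in each channel of arrays 1 and 2, array 3 compared single rats (1 per channel), and every array had rats of its own. The comparison asks which transcripts of this urine-concentrating zone differ in lithium-induced nephrogenic diabetes insipidus, a state of poor response of the collecting duct to vasopressin.

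The inner medulla is built of collecting ducts, thin limbs, vasa recta and interstitial cells, so an epithelial transcript there comes from several duct and tubule types. Keratins form paired filaments that stiffen simple epithelia, EpCAM ties epithelial cells to each other, and prominin-1 sits in the microvilli and other protrusions of the apical membrane. Aldehyde dehydrogenase 1A1 makes retinoic acid from retinaldehyde. Prominin-1 (CD133), ALDH1 activity and EpCAM are widely used to sort progenitor-type cells, but mature epithelia make these proteins too, so none of them alone names a cell state.

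The deposited value of a probe is a log ratio with 2 decimals whose base and direction were not stated. It was centred on the array's median, and a value above 0 was read as higher with lithium, which is likely given that channel 1 is lithium in the labels. Aqp2, the vasopressin-regulated water channel whose abundance lithium is known to lower, read 0.11, 0.26 and 0.14 on arrays 1, 2 and 3. Under this reading that is opposite to the known change, so the direction is not settled. With the direction turned every sign below would turn as well. No dye swap was labelled, so effects of dye and of lithium cannot be told apart. Values were present for 5582, 5682 and 4287 of 5760 probes on arrays 1, 2 and 3, and 3819 features (named genes and unnamed probes) had one on every array. Across these features the ratios of arrays 1 and 2, 1 and 3, and 2 and 3 had Pearson correlations of 0.46, 0.48 and 0.16, as a description over genes that share probes' print and dye effects. In whole-tissue RNA, more cells of a type and more RNA per cell cannot be told apart.

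Krt19, a keratin of simple and ductal epithelia, had centred log ratios of 0.44, 0.59 and 0.30 on arrays 1, 2 and 3. It was highest on array 2 and lowest on array 3, and its probe was 7.1.12.9. Its mean log ratio was 0.44 ± 0.15 (SD, n = 3), or 2.78-fold if the logarithm has base 10 and 1.36-fold if it has base 2. By mean ratio it stood in place 3 of 3819 features, and on array 2 it was the highest of all of them. Its SD between arrays was the largest of the 4 genes, and 9.37% of features had a larger one.

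Prom1, which encodes the cholesterol-binding membrane glycoprotein prominin-1, had nearly the same log ratio on every array, 0.37, 0.40 and 0.41 on arrays 1, 2 and 3 (probe 8.2.5.2). Its mean of 0.39 ± 0.02 (SD, n = 3) stands for 2.47-fold in base 10 and 1.31-fold in base 2. It stood in place 4 by mean ratio and in places 6, 5 and 5 on the 3 arrays. Of all features 94.2% had a larger SD between arrays.

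Aldh1a1, the cytosolic retinaldehyde dehydrogenase, had log ratios of 0.33, 0.31 and 0.25 on arrays 1, 2 and 3 (probe 8.3.2.10). Its mean of 0.30 ± 0.04 (SD, n = 3) stands for 1.98-fold in base 10 and 1.23-fold in base 2, in place 10 of 3819. As for Krt19, the single-rat array 3 gave the lowest value, where Aldh1a1 stood in place 47.

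Epcam, the homophilic adhesion molecule of epithelia, had the smallest log ratios of the set, 0.23, 0.19 and 0.20 on arrays 1, 2 and 3 (probe 1.4.5.8). Its mean was 0.21 ± 0.02 (SD, n = 3), or 1.61-fold in base 10 and 1.15-fold in base 2, in place 25 by mean ratio. On the single arrays it stood in places 27, 142 and 108, and 93.3% of features had a larger SD between arrays. The median of its own print block was 0.05, −0.065 and 0.12 in deposited units on arrays 1, 2 and 3, and its mean ratio was 0.15 when each probe was centred on its block.

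All 4 genes had a log ratio above 0 on all 3 arrays, which their choice fixed. The same was true of 24.1% of the 3819 features. At or above 0.19 on every array, the lowest value that any of the 4 genes reached, were 15 features. The order on arrays 1 and 2 was Krt19, Prom1, Aldh1a1 and Epcam, while on array 3 Prom1 came before Krt19. The difference of Krt19 over Prom1 was 0.05 ± 0.15 (SD, n = 3) and changed sign between arrays, so these neighbours did not differ beyond their spread. Prom1 exceeded Aldh1a1 by 0.10 ± 0.06 on the log-ratio scale, and Aldh1a1 was above Epcam by 0.10, 0.12 and 0.05 on arrays 1, 2 and 3. The values of Epcam and Aldh1a1 did not overlap, nor did those of Aldh1a1 and Prom1, while Krt19 spanned those of Prom1 and part of those of Aldh1a1.

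**Figure D1:**
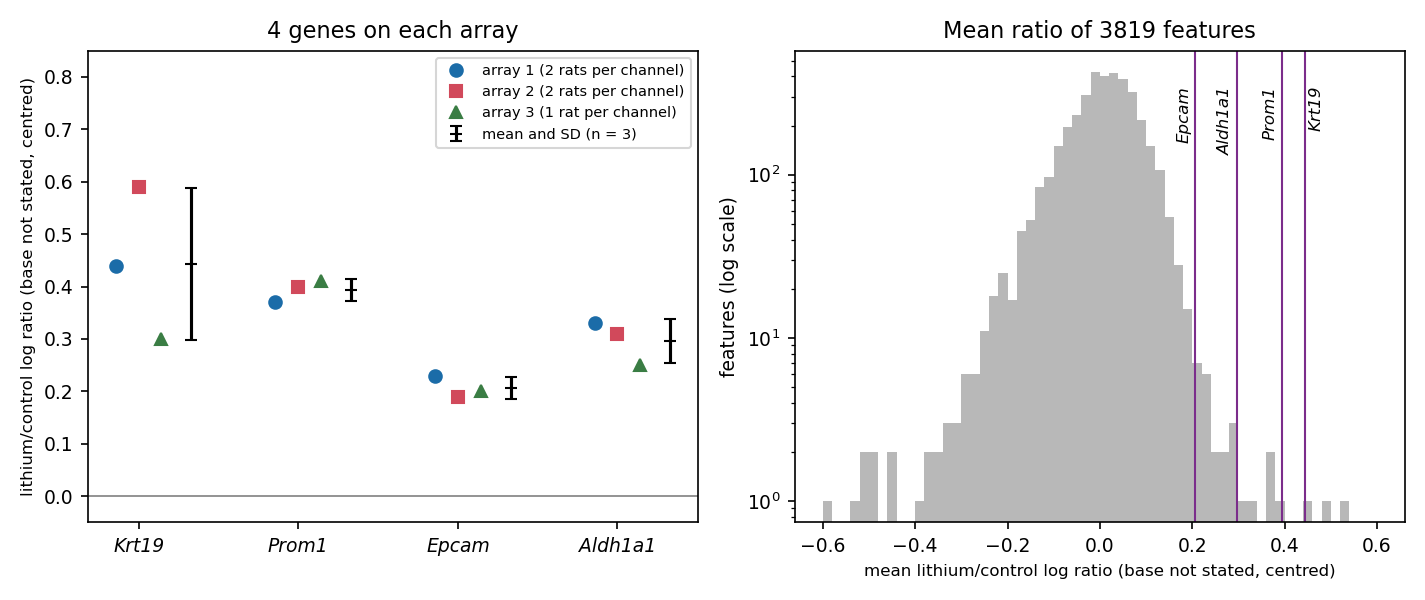
Left, the centred lithium over control log ratio of Krt19, Prom1, Epcam and Aldh1a1 on each array, with the mean and SD of the 3 arrays. Right, the number of features (log axis) by mean log ratio, with a line at each gene's mean. Krt19 spreads from 0.30 to 0.59, Prom1 only from 0.37 to 0.41, and all 4 means lie in the upper tail of the 3819 features.

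The sequence before the annotated start of a gene is shown as a description, and letters shared between the starts can be seen in it. That these genes read higher together was fixed by their choice, and a shared regulation was not tested. RefSeq (build GRCr8) gave an entry for 3 of the 4 genes, and Krt19 had none in the table used. The 250 bases before the start follow, 5′ to 3′ on the gene's strand, with matches to the searched motifs in capitals. Prom1 has 2 listed starts, and the first is shown. Epcam lies on the minus strand, Prom1 and Aldh1a1 on the plus strand.
Prom1, chr14:71202395-71202644: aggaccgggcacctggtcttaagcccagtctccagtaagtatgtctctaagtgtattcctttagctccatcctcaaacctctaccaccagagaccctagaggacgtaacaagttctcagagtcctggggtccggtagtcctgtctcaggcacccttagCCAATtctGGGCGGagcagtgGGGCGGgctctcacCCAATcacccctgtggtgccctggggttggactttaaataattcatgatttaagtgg
Epcam, chr6:12649679-12649928: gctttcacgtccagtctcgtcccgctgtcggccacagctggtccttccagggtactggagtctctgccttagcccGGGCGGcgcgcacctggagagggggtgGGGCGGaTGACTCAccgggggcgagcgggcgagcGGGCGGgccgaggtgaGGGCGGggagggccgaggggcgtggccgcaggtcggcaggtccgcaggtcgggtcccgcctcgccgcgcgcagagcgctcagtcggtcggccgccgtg
Aldh1a1, chr1:227537370-227537619: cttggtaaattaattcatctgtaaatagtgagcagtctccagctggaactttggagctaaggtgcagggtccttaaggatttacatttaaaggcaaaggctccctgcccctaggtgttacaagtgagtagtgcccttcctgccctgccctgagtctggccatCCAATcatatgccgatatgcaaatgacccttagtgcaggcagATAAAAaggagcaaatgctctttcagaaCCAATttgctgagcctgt

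The 7 motifs were searched on both strands. They were the CCAAT box (CCAAT), the GC box (GGGCGG), an AP-1 site (TGANTCA), a TCF/LEF core (CTTTGA), the core motif of nuclear receptors (AGGTCA), the classical TATA box (TATAAA) and a variant of it that starts 1 base later (ATAAAA), of which the last 2 share letters where they overlap. The Prom1 window held 2 CCAAT and 2 GGGCGG matches between 92 and 53 bases before the start. The Epcam window held 4 GGGCGG matches and a TGANTCA match 141 bases before the start, and its bases were 75.6% G or C, against a median of 51.2% over all windows. The Aldh1a1 window held CCAAT 88 and 18 bases before the start and ATAAAA 46 bases before it. The second Prom1 start had a TGANTCA match 191 bases before it. Of 33469 listed starts 34.0% held CCAAT, 30.5% GGGCGG, 18.6% ATAAAA and 6.34% TGANTCA in a window of the same length. The TCF/LEF core, the nuclear receptor core and the TATA box, found in 13.9%, 14.1% and 12.9% of all windows, were not among the letters of these windows, and no motif was found in all of them.

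The filament partners of Krt19 read near 0. Krt8, the basic keratin that pairs with Krt19 and Krt18 in simple epithelia, had log ratios of −0.04, 0.05 and 0.00 on arrays 1, 2 and 3. Krt18, the other acidic keratin of these filaments, had −0.06, 0.11 and −0.05 as the mean of 2 probes. Both lay around 0 on all arrays, below every value of Krt19, which had been chosen for its high ratios. Krt20, known from intestinal and urothelial cells, read −0.06 on each array. Krt1 and Krt16, keratins of stratified epithelia, had mean log ratios of −0.16 ± 0.15 (limma adjusted p = 0.239) and −0.19 ± 0.13 (limma adjusted p = 0.176; SD, n = 3 each). Among filament genes outside the keratins, lamin A/C (Lmna) stood at 0.12 ± 0.02 (limma adjusted p = 0.192) and vimentin (Vim), of mesenchymal and dedifferentiating cells, at 0.10 ± 0.04 (limma adjusted p = 0.269). The list of 15 intermediate filament genes besides Krt19 split into 8 above 0, 6 below and 1 at 0, and its median log ratio of 0.003 was below 0 under 5 of 7 alternatives, with 5 genes above 0 and 10 below without centring. Over all 3819 features 55.7% lay above 0, with a median of 0.01. In limma's test over all features none of the 15 passed, where 0.445% of all features did, and 4 had an unadjusted p under 0.05, 2 of them higher and 2 lower. Of all features 17.2% had such an unadjusted p, 9.71% as higher and 7.52% as lower.

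Adhesion and junction genes around Epcam had small ratios, most of them above 0. Of 20 measured genes besides Epcam 15 had a mean log ratio above 0 (12 without centring), 4 below and 1 at 0, and 9 were above 0 on all 3 arrays, as were 24.1% of all features. Their median was 0.07, between 0.04 and 0.09 under 7 alternatives, against 0.01 over all features. None passed limma's adjusted threshold of 0.05, and 9 had an unadjusted p under 0.05, 8 of them higher, where 17.2% of all features had one and 9.71% were higher. Cldn3, a tight junction claudin of the tubule, stood at 0.24, 0.16 and 0.16 on arrays 1, 2 and 3 (mean 0.19 ± 0.05, limma adjusted p = 0.122) and was the nearest of the list to Epcam. The tetraspanins Cd81 and Cd82, which organise adhesion proteins in the membrane, stood at 0.17 ± 0.05 (adjusted p = 0.139) and 0.15 ± 0.02 (adjusted p = 0.142). Cldn7 and Tspan8 averaged 0.13 each. On arrays 1, 2 and 3 Cldn7 read 0.18, 0.10 and 0.12, and Tspan8 0.05, 0.07 and 0.28. The tetraspanin gene Cd9 read −0.05, 0.07 and −0.02 there. All were named with their values known. The hyaluronan receptor gene Cd44 had the lowest mean of the list, −0.23 ± 0.18 (adjusted p = 0.176), but its 5 probes disagreed, reading from −0.76 to 0.19 on array 2, and only 2 of them had a value on array 3.

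Genes of microvilli and membrane protrusions, where prominin-1 sits, read on both sides of 0. Of 11 measured genes 7 lay above 0 and 4 below, with a median log ratio of 0.05 that was −0.02 when genes measured on at least 2 arrays were taken. Nherf1, the scaffold that links apical membrane proteins to ezrin, stood at 0.17 ± 0.04 (limma adjusted p = 0.136), and ezrin (Ezr), the linker to the actin core of the microvillus, at 0.11 ± 0.05 (adjusted p = 0.230; SD, n = 3). Podocalyxin (Podxl) and the brush border aminopeptidase N (Anpep) stood at −0.12 ± 0.03 (adjusted p = 0.202) and −0.12 ± 0.09 (adjusted p = 0.258). No gene of the list passed limma's threshold, and 4 of the 11 had an unadjusted p under 0.05, 2 of them higher, against 17.2% of all features with 9.71% higher.

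Other aldehyde dehydrogenases read on both sides of 0, with 4 of the 7 measured genes of the list above 0, 3 below and none above 0 on all 3 arrays. The list takes symbols with a family number, letter and member number, so it does not hold Aldh2, the mitochondrial enzyme of acetaldehyde, which read 0.00, 0.10 and −0.22 on arrays 1, 2 and 3. With it, 4 of 8 lay above 0 and 4 below. The list's median log ratio was 0.02, with the opposite sign or at 0 under 4 of 7 alternatives. Aldh7a1, an enzyme of lysine breakdown, stood at 0.04 ± 0.04 (limma adjusted p = 0.678), Aldh3a2, which oxidises fatty aldehydes, at −0.07 ± 0.03 (adjusted p = 0.395) and Aldh6a1, of valine breakdown, at −0.04 ± 0.13 (adjusted p = 0.773). Aldh1a2, the retinaldehyde dehydrogenase of the embryo and of stromal cells, read 0.07, −0.57 and −0.09 on arrays 1, 2 and 3. None of these 8 genes had an unadjusted p under 0.05 in limma, against 17.2% of all features.

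Genes that carry, make and sense retinoids lay on both sides of 0. Of 13 measured genes besides Aldh1a1 7 were above 0 and 6 below, and the median log ratio of 0.03 was not above 0 under 2 of 7 alternatives. The lowest was Crabp2, the binding protein that hands retinoic acid to its receptor, at −0.30 ± 0.18 (SD, n = 3, limma adjusted p = 0.126). Crabp2 passed as lower with arrays of equal spread or with a robust prior. In these settings 98 and 94 of 3819 features passed, against 17 in the main test. Adh4, an alcohol dehydrogenase that can oxidise retinol, stood at 0.14 ± 0.05 (adjusted p = 0.176) and the retinol dehydrogenase Rdh16 at −0.12 ± 0.05 (adjusted p = 0.215). Of the retinoid receptor genes Rxra, Rara and Rxrg had means of 0.05, 0.04 and −0.01. The 2 probes of Rara disagreed in sign on arrays 1 and 3, with 0.13 and 0.06 for one against −0.10 and −0.14 for the other, and those of Rxrg disagreed on array 1, with 0.10 and −0.13. None of the 13 passed limma's threshold, and 3 had an unadjusted p under 0.05, 1 of them higher, against 17.2% and 9.71% of all features.

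**Figure D2:**
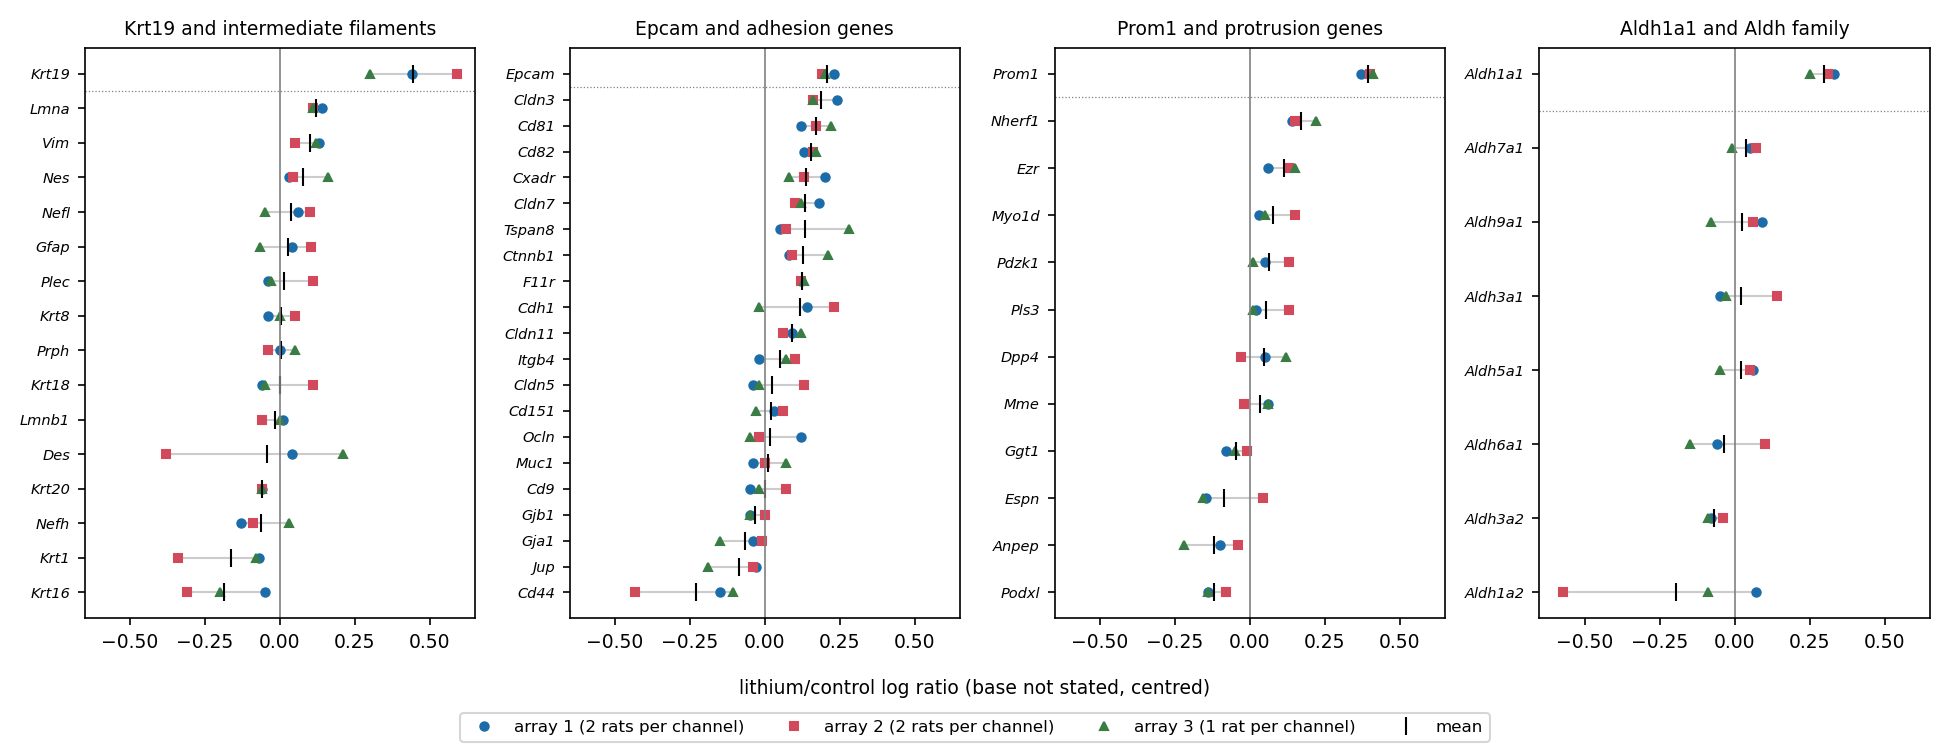
Centred lithium over control log ratio (x axis) of Krt19, Epcam, Prom1 and Aldh1a1, each above the dotted line, and of the measured genes of its list below it, ordered by mean. Symbols are the arrays and black ticks the means. Krt19 and Aldh1a1 lie to the right of every array value of their lists, and so does Prom1, while Epcam overlaps Cldn3 and several other adhesion genes. Krt19, Epcam, Prom1 and Aldh1a1 had been chosen for high ratios on these arrays, which fixed much of their position.

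Other markers used for progenitor-type or dedifferentiated tubule cells had smaller ratios than Prom1 and Aldh1a1. The choice of Prom1 and Aldh1a1 for high ratios fixed much of this. Of all features only 0.0786% had a higher mean than Prom1 and 0.236% a higher mean than Aldh1a1. Of 26 measured genes 16 lay above 0 (14 without centring) and 10 below, and 10 were above 0 on all 3 arrays, against 24.1% of all features. The median log ratio was 0.05, and between 0.01 and 0.05 under the alternatives. Pax8, a transcription factor of the nephron and collecting duct lineage, stood at 0.16 ± 0.07 (limma adjusted p = 0.172), Sox11, of developing tissue, at 0.15 ± 0.04 (adjusted p = 0.156), and the receptor gene Notch3 at 0.12 ± 0.08 (adjusted p = 0.239; SD, n = 3). Cd24, which is combined with prominin-1 to sort tubular progenitor-type cells in human kidney, read 0.04, 0.09 and 0.05 on arrays 1, 2 and 3, below every value of Prom1. Nestin (Nes) averaged 0.08, but its 2 probes disagreed, with 0.11 and −0.05 on array 1, and only the first had a value on array 3. No gene of this list passed limma's threshold, and 7 of the 26 had an unadjusted p under 0.05, 4 of them higher, where the shares of all features were 17.2% and 9.71%. The 3 lower ones, where 7.52% of all features were lower, were Cd44, Cited1 and Id3. Cd44 stood at −0.23 ± 0.18 (limma adjusted p = 0.176), Cited1 at −0.11 ± 0.06 (adjusted p = 0.255) and Id3 at −0.11 ± 0.07 (adjusted p = 0.256). The 2 probes of Id3 differed, with −0.07 and −0.32 on array 1, and only the first had a value on array 3. Vim, Nes and Cd44 also belong to the lists above.

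Proliferation genes were spread around 0, 6 of 11 being above 0, 4 below and 1 at 0, and their median log ratio of 0.01 stayed above 0 under 4 of 7 alternatives. The replication helicase gene Mcm6 stood at 0.16 ± 0.09 (limma adjusted p = 0.176) and cyclin D1 (Ccnd1) at 0.14 ± 0.15 (adjusted p = 0.278), whereas the mitotic kinase genes Cdk1 and Plk1 stood at −0.21 ± 0.12 (adjusted p = 0.140) and −0.08 ± 0.04 (adjusted p = 0.375; SD, n = 3). None passed limma's threshold, and 3 of the 11 had an unadjusted p under 0.05, 2 of them higher, beside 17.2% and 9.71% of all features. With arrays of equal spread, or with a robust prior, Cdk1 passed as lower, where 98 and 94 of 3819 features passed.

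Markers of collecting duct principal cells read above 0 beside the 4 genes, in a list chosen with these values known. All 12 measured markers had a mean log ratio above 0 (11 without centring or with centring on the features of all 3 arrays, where Aqp3 was below), from 0.01 for Aqp3 to 0.49 for Hsd11b2, with a median of 0.13 that ran from 0.11 to 0.15 under the alternatives. On all 3 arrays 11 of them lay above 0, against 24.1% of all features. List medians on arrays 1, 2 and 3 were 0.10, 0.13 and 0.14. Hsd11b2, which protects the mineralocorticoid receptor from glucocorticoids, stood at 0.49 ± 0.10 (SD, n = 3) with a limma adjusted p of 0.0234. The other 11 markers did not pass, and 0.236% of all features passed as higher. By an unadjusted p under 0.05, 9 of the 12 were higher, as were 9.71% of all features. Without array 1, 2 or 3 the adjusted p of Hsd11b2 was 0.742, 0.295 and 0.408. Scnn1b, a subunit of the epithelial sodium channel, stood at 0.24 ± 0.09 (adjusted p = 0.105), and the potassium channel gene Kcnj1 at 0.20 ± 0.12 (adjusted p = 0.150). The 3 probes of Kcnj1 read 0.20, 0.12 and −0.10 on array 3. The part of principal cell markers in the ratios of Krt19, Prom1, Epcam and Aldh1a1 was not tested.

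Markers of the other larger cell type lists read on both sides of 0. The list taken for thin limbs had a median log ratio of −0.09, with 2 of 6 genes above 0. It ran from −0.27 for aldose reductase (Akr1b1, limma adjusted p = 0.0616) to 0.19 for Cldn3. Aqp1, which is also in the proximal tubule list, stood at −0.19 ± 0.08 (adjusted p = 0.136). Whether Akr1b1 and Cldn3 mark thin limbs alone was not tested, so the median belongs to the list and not to a cell type. Interstitial, fibroblast and pericyte markers had 6 of 13 above 0, a median of −0.01 and a range from −0.24 for S100a4 to 0.10 for Vim. Of endothelial markers 3 of 6 lay above 0, from −0.07 for Plvap to 0.11 for Tie1, and of leukocyte markers 5 of 8, from −0.39 ± 0.29 for Itgam to 0.16 ± 0.03 for Cd4. The proximal tubule is not among the structures of the inner medulla named above, and the source of its markers' signal was not tested. Of these markers 4 of 7 lay above 0, from −0.19 for Aqp1 to 0.20 for Slc22a6. Their median was 0.07, and −0.09 when genes measured on at least 2 arrays were taken. The 3 measured intercalated cell markers, Kit, Slc4a1 and Car2, averaged 0.08, 0.02 and 0.01, and their defining proton pump gene Atp6v1b1 was not analysed here. The 2 probes of Slc4a1 disagreed in sign, with 0.12 and 0.25 against −0.12 and −0.27 on arrays 1 and 2. Only the first of them had a value on array 3. Of urothelium, which covers the papilla and makes Krt19 too, Krt20 alone was measured on all arrays, and the uroplakin genes were not analysed here. The red cell marker Hba-a1 stood at 0.15 ± 0.06 (adjusted p = 0.169). The medians of the endothelial, interstitial and leukocyte lists changed sign or reached 0 under 2, 3 and 3 of 7 alternatives. None of these 44 markers passed limma's threshold, 14 had an unadjusted p under 0.05 with 8 of them higher (17.2% and 9.71% of all features), and their part in the ratios of the 4 genes was not tested. Slc14a2, of the thin limb list, is among these 8 and is also counted with the principal cell markers.

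**Figure D3:**
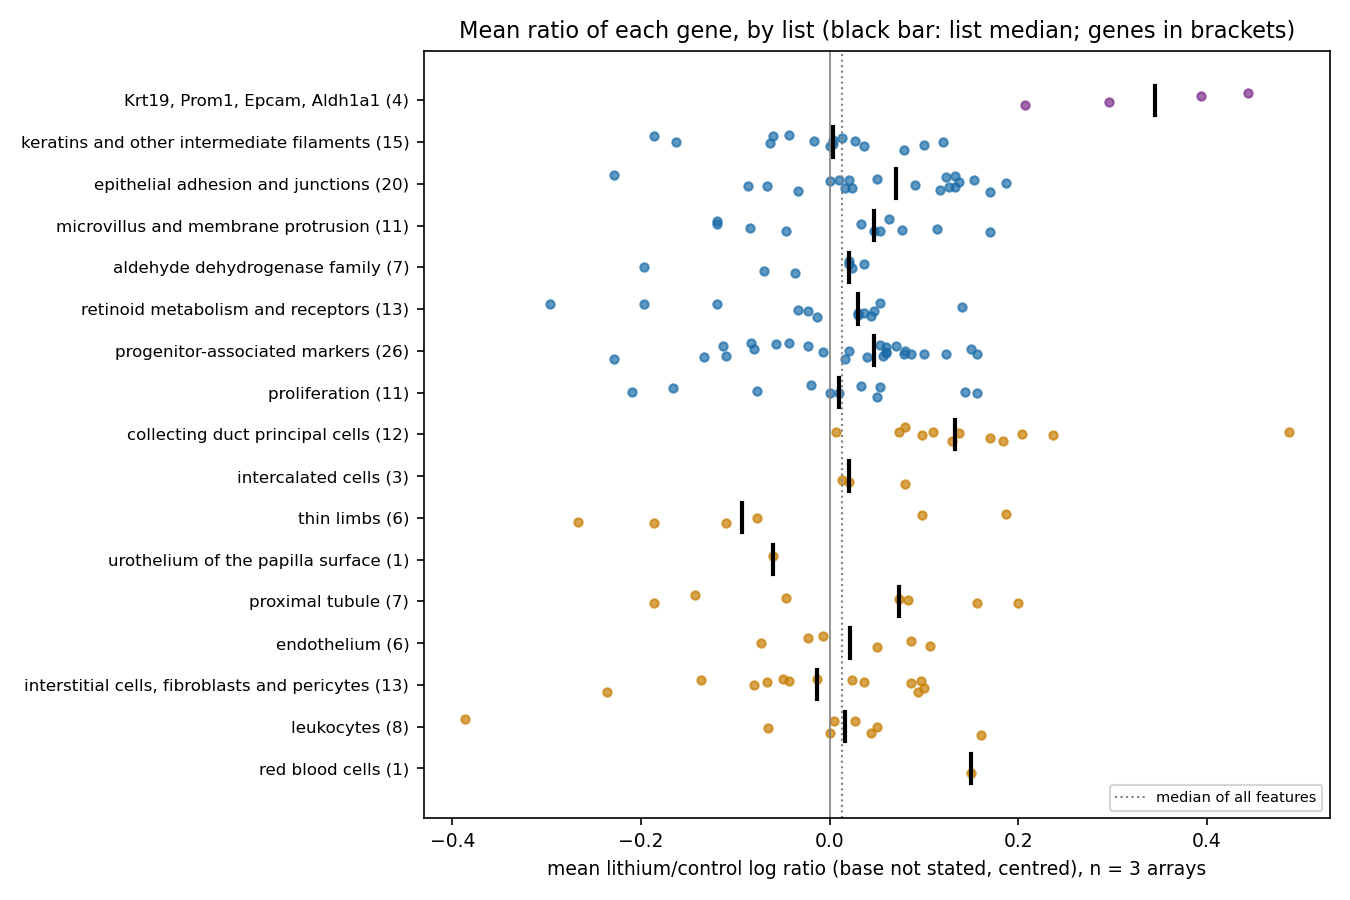
Mean centred lithium over control log ratio of single genes (points, n = 3 arrays), grouped by list, with the list median as a black bar and the median of all features as a dotted line. The top row holds Krt19, Prom1, Epcam and Aldh1a1, blue rows are pathway lists and orange rows cell type markers. All 12 principal cell markers lie right of 0 (11 without centring), and Hsd11b2 at 0.49 is the single listed gene to the right of Krt19.

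The genes whose ratios were most like those of each of the 4 genes were found by the root-mean-square difference of the centred log ratios over the 3 arrays, among named genes. Nearest to Krt19 were Hsd11b2, the mitochondrial creatine kinase gene Ckmt1 and the lysosomal protease gene Ctsd, at distances of 0.06, 0.09 and 0.13. Hsd11b2 read 0.52, 0.57 and 0.37 on arrays 1, 2 and 3, with its lowest value on array 3 as for Krt19. Ctsd, the glutaminase gene Gls2 and Ckmt1 were nearest to Prom1, at 0.07, 0.09 and 0.11. The alanine aminotransferase gene Gpt, the heparan sulfate enzyme gene Ndst1 and Ctsd were nearest to Aldh1a1, at 0.04, 0.05 and 0.06. Gpt read 0.29, 0.25 and 0.27 on arrays 1, 2 and 3. Nearest to Epcam were Cldn3 and the immunoproteasome gene Psmb9, both at 0.03, and the phosphatase gene Ppp1cc, also at 0.03. Psmb9 read 0.20, 0.15 and 0.19, and Ppp1cc 0.25, 0.16 and 0.24. The arrays are 3 in number and a high value on all of them fixes much of the likeness, so these neighbours are other features in the upper tail.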

How the data were processed

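The authors deposited 1 log ratio per probe and array, with 2 decimals. Of scanner, background correction, normalization, filter, log base, direction and centring, each is not given in the sources used here, so all remain unknown. Deposited medians were −0.02, −0.04 and 0.00 on arrays 1, 2 and 3. Intensities were not analysed here, and the number of arrays limits the precision.

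Probes were named from the platform's public annotation: 5064 had 1 symbol, 9 several and 687 were not listed. Each array's median was subtracted, and probes of a gene were averaged per array. Features measured on all 3 arrays entered limma 3.58.1 under R 4.3.3 (intercept-only lmFit, eBayes, two-sided, Benjamini-Hochberg over 3819 features, adjusted p of 0.05), checked on simulated data. The arrays held different rats, so the spread includes that between animals or pools. Each fold was computed with base 10 and with base 2.

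The 4 genes and all lists were chosen with earlier results of these data known. Named from each pathway list were the genes past the threshold and the 4 with the smallest limma p. From each cell type list the rule took the 3 with the largest absolute mean, and for each of the 4 genes the 3 nearest. Krt8, Krt18, Krt20, Cldn7, Tspan8, Cd9, Cd24, Cited1, Id3, Nes, Aldh2, Rxra, Rara, Rxrg, Aqp2 and Aqp3 were named outside the rule, with values known. Alternatives were other centrings, scaling, other feature sets, priors, weights and each array left out. Block-wise centring of the limma count and merging gene IDs of 1 symbol were added after seeing the data. Promoter sequences came from RefSeq, build GRCr8. Tables and plots were made with numpy 2.4.6, pandas 2.3.3 and matplotlib 3.10.9 under Python 3.11.15.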

Additional observations from a re-analysis of the deposited data

How the results depend on the processing

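The mean log ratios of Krt19, Prom1, Epcam and Aldh1a1 stayed above 0 under each of 7 alternatives and moved by more than their SD only for Epcam, at 0.15 under block-wise centring. With 1 array left out Krt19 ran from 0.37 to 0.52, Prom1 from 0.39 to 0.41, Epcam from 0.20 to 0.22 and Aldh1a1 from 0.28 to 0.32. Single probes gave no alternative for them, since each has 1 probe. No paired analysis was possible because every array already is a lithium to control ratio of 1 group. The count of 17 features past the limma threshold became 20 under block-wise centring, 98 with scaled arrays, 40 with features measured on at least 2 arrays, 11 with single probes, 94 with a robust prior and 1055 with array weights, and the cause was not tested. It was 0 without any 1 array, where limma gave 172, 606 and 445 features an unadjusted p under 0.05 (arrays 1, 2 and 3 left out in turn). Among listed genes, Cldn3, Scnn1b and Slc22a6 passed as higher beside Hsd11b2 with a robust prior, and Crabp2, Cdk1, Akr1b1 and S100a4 as lower. With array weights 582 of 3819 features passed as higher and 473 as lower. In either direction 1055 of 3819 features then passed. So did 10 of 20 adhesion genes, 7 of 26 progenitor-associated markers, 7 of 12 principal cell markers and 5 of 11 proliferation genes. Of the other pathway lists, 4 of 11 protrusion genes, 3 of 15 filament genes, 3 of 13 retinoid genes and 1 of 7 aldehyde dehydrogenases passed. Of the other cell type lists, 5 of 13 interstitial, 4 of 7 proximal tubule, 4 of 6 thin limb, 3 of 6 endothelial and 2 of 8 leukocyte markers passed. The red cell marker Hba-a1 passed too. Of 16 list medians 5 kept their sign under all alternatives, among them those of adhesion genes, progenitor-associated markers, principal cells and thin limbs. The others changed sign or reached 0 under at least 1.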

Other observations

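Listed genes without a value on every array, 25 in number, were left out of the counts, and 20 of them read below 0 on each array that had them. The same share over all partly measured features was not computed, so this is no result about the listed genes. With all features measured on at least 2 arrays, 4 of 4930 passed limma's threshold as higher and 36 as lower. In the main test 9 of 3819 passed as higher and 8 as lower. Alcam, an adhesion molecule also used as a progenitor marker, was the single gene above 0 throughout, with log ratios of 0.21 and 0.31 on arrays 2 and 3 and none on array 1. The microvillus motor gene Myo1a read −0.39 and −0.61, and the basal cell keratin Krt5 −0.20 and −0.17, on arrays 1 and 2. The tubule injury marker Havcr1 read 0.00 and −0.25 there. The adhesion genes Cldn1 and Cdh17 read 0.07 and −0.30, and −0.09 and −0.13. The retinoid receptor genes Rarb and Rxrb read −0.14 and −0.06, and −0.01 and −0.20. None of these had a value on array 3 except Alcam. Above, they enter only the alternative that took features measured on at least 2 arrays.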
